A study of Mus musculus with 3 samples.

Results

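The genes described here are 10 genes known as markers of the Wnt-driven stem cell of the small intestinal crypt, Lgr5, Ascl2, Olfm4, Slc12a2, Axin2, Smoc2, Sox9, Cd44, Clca3b and Cdca7, out of 13891 genes in the table. They were taken as a list, and each was followed over 7 classes of cells and over the 3 libraries of the study. The study asked how alginate oligosaccharides (AOS), short sugar chains made from alginate, act on the small intestine of mice given busulfan, an alkylating drug that damages dividing cells. All mice were males of the outbred strain ICR, aged 3 weeks at the start. Gavage lasted 2 weeks, and the cells were taken after it. AOS 0 mice had vehicle alone, B + A 0 mice had 1 injection of busulfan at 40 mg/kg and vehicle, and B + A 10 mice had the same busulfan and AOS at 10 mg/kg. The small intestinal cells of 6 mice were pooled for each group and loaded as 1 library on the 10x droplet system, where a random tag, the unique molecular identifier (UMI), lets every RNA molecule be counted once. Values for the 3 libraries are always given in the order AOS 0, then B + A 0, then B + A 10.

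With 1 library per group there was no replicate and no test. Ranges in parentheses are 95% intervals for counting error alone, and a difference between libraries may come from the treatment, the mice, the dissociation or the lane, which cannot be told apart. The source label of the B + A 0 library names another group, as does that of the B + A 10 library. The title, the description and the treatment label gave the groups used here.

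Wnt ligands bind Frizzled and Lrp receptors at the base of the crypt and keep beta-catenin from being degraded. Beta-catenin then joins TCF/LEF factors on DNA and turns on target genes that hold stem cells in the undifferentiated, dividing state. R-spondins strengthen the signal through receptors of the Lgr family, and feedback genes such as Axin2 damp it.

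The genes have different roles within this circuit. Lgr5 is the R-spondin receptor that marks crypt base columnar stem cells, and Axin2 is a scaffold of the complex that degrades beta-catenin. Ascl2 and Sox9 are transcription factors, and Sox9 is also needed for Paneth cells. Olfm4 and Smoc2 code for secreted proteins of the stem cell zone, and Cd44 codes for a hyaluronan receptor of the cell surface. Slc12a2 is a sodium, potassium and chloride cotransporter, Clca3b belongs to the family of calcium-activated chloride channel regulators, and Cdca7 works with the chromatin remodeler Hells. Clca3b has close relatives in the table, Clca3a1 and Clca3a2, so its counts are uncertain where reads are shared.

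RefSeq promoters of build GRCm38.p6, from 250 bases before to 50 bases after the start, were at hand for 6 of the 10 genes. The promoters of Axin2, Olfm4, Cd44 and Clca3b are shown because their genes shared the crypt pattern described below while their sequences differed. They lie at chr11:108920099-108920398 on the plus strand for Axin2, chr14:80000052-80000351 on the plus strand for Olfm4, chr2:102901616-102901915 on the minus strand for Cd44 and chr3:144849253-144849552 on the minus strand for Clca3b. The start of Olfm4 lies inside the longer gene of the GENCODE annotation, at 79984081 to 80023139. Capitals mark the TCF/LEF core CTTTG or its reverse complement CAAAG.
Axin2: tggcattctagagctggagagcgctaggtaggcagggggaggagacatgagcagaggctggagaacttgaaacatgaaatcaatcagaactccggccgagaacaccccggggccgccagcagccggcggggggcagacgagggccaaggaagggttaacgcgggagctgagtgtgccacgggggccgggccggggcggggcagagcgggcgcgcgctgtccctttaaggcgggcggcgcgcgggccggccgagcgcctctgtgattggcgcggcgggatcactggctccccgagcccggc
Olfm4: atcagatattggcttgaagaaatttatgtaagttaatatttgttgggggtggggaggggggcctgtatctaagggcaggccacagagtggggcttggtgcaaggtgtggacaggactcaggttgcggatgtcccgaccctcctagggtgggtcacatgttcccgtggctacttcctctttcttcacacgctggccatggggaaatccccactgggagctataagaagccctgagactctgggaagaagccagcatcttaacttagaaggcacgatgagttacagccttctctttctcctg
Cd44: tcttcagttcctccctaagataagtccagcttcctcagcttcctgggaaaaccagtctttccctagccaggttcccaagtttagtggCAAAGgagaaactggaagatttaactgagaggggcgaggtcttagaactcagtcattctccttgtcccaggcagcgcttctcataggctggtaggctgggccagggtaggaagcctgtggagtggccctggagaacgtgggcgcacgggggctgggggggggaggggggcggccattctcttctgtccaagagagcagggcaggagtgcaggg
Clca3b: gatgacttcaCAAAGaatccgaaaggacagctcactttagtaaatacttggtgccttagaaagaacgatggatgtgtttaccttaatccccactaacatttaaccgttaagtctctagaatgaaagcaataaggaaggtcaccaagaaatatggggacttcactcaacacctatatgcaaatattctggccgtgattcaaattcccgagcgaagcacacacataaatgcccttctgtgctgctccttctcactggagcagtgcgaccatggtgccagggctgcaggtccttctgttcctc

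The core was searched on both strands and was present in the windows of Cd44 and Clca3b among the 6 genes (the other 4 are Axin2, Olfm4, Ascl2 and Cdca7), while 53.9% of all 32851 promoter windows held it. None of the 6 windows held the longer TCF/LEF site CTTTGAT, which contains the core and was present in 3.73% of all windows. Likewise none held TATAAA, the TATA box, or CAGCTG, an E-box that can be bound by factors of the family of Ascl2, present in 13.6% and 16.3% of all windows. The number of CG dinucleotides differed widely. Axin2 held 31, more than 89.4% of all windows, Cdca7 held 26 and Ascl2 held 23. Clca3b held 7, Cd44 held 6 and Olfm4 held 5.

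The 3 libraries held 4106, 3195 and 5352 cells, with medians of 7371, 6407 and 3505 UMIs per cell. Between 17 and 34 cell barcodes were shared by each pair of libraries. Clusters were found without the 10 genes and without the Wnt pathway genes below, and 15 of the 20 were named for their marker genes. The 7 classes followed here were stem-like, S phase-like, mitotic-like, early enterocyte-like, goblet-like, Paneth-like and enteroendocrine-like. The other named clusters were mature enterocyte-like, T cell-like and tuft-like, and 5 clusters with 2916 cells stayed unnamed. The classes are called stem cells, S phase cells and so on below, and the first 3 together are the crypt cells, 1026, 776 and 1256 cells in the 3 libraries. Stem cells numbered 165, 118 and 246, or 4.02%, 3.69% and 4.6% of all cells. Their leading genes were Cdk6, Cnn3, Amica1, Rgcc, Cdo1, Ifitm3, Igfbp4, Aqp4, Marcksl1 and Gkn3, and their 15 stem markers summed to 48.2, 46.0 and 45.2 UMIs per 10000 UMIs in the 3 libraries. The same markers summed to between 25.6 and 29.8 in S phase and mitotic cells.

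RNA of other cells was present in the crypt cells and moved with the libraries. The 16 Paneth markers summed to 41.0, 74.7 and 62.4 UMIs per 10000 in the stem cells of the 3 libraries, the 16 goblet markers to 32.5, 59.2 and 75.5, and the 18 mature enterocyte markers to 26.9, 37.3 and 42.1. Levels below are UMIs of a gene per 10000 UMIs of the class, that is, shares that such RNA enters. Its part in the differences between libraries was not tested. In Paneth cells the 16 Paneth markers took 5712, 5357 and 5603 of every 10000 UMIs. In goblet cells the 16 goblet markers took 3509, 3515 and 3646. Every other gene shares what is left there, so its levels in Paneth and goblet cells are lowered against those in other classes. No correction was made for this.

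All 10 genes had their highest mean level in stem cells, and in each of the 3 libraries every one of them was higher there than in the other 6 classes. Of the 8273 genes with at least 300 UMIs, 15.7% were highest in stem cells and 45.0% in a crypt class. In crypt cells lay between 57.1% (Sox9) and 83.0% (Olfm4) of all UMIs of a gene. The steps below the stem cells differed from gene to gene, as the plot of levels by class shows.

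**Figure D1:**
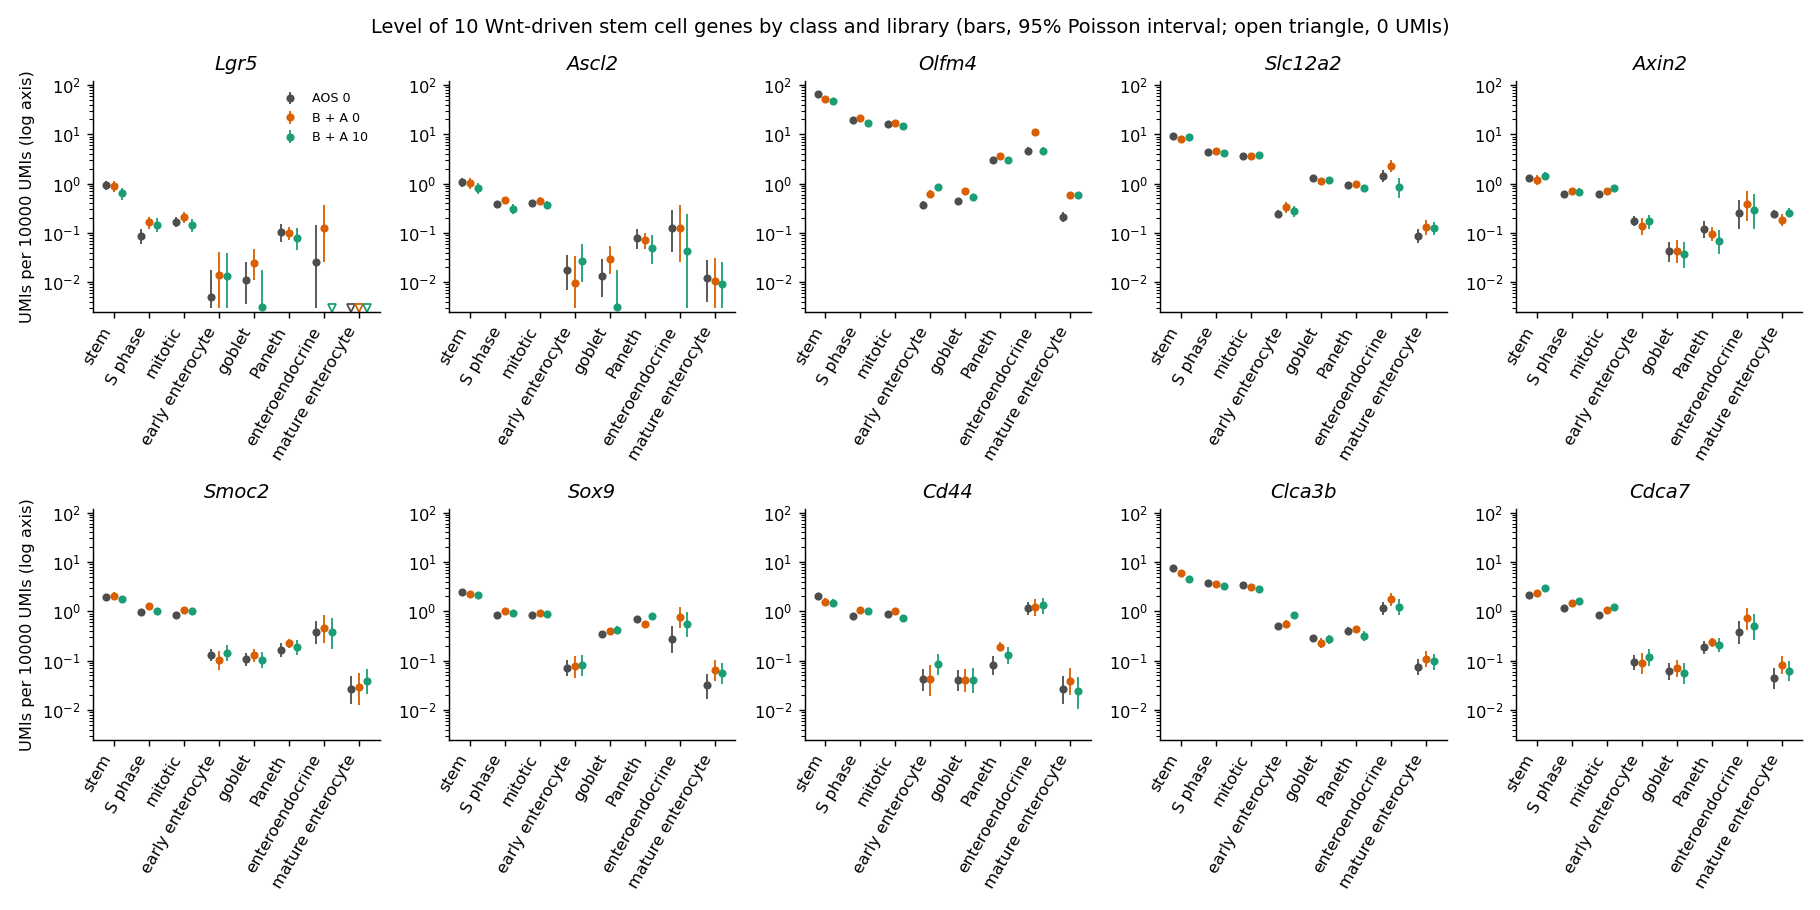
Level of each gene in UMIs per 10000 UMIs (log axis) in 7 classes and in mature enterocytes, 1 point per library with its 95% Poisson interval, and an open triangle where no UMI was counted. The stem cells hold the highest point of each gene in all 3 libraries, with Olfm4 between 47.4 and 64.4 and Lgr5 between 0.635 and 0.924.

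Lgr5 had the steepest step between stem cells and the next class. Its level in stem cells was 0.924, 0.878 and 0.635 in the 3 libraries, from 92, 60 and 52 UMIs. It was 0.168, 0.208 and 0.144 in mitotic cells and 0.0879, 0.163 and 0.145 in S phase cells. The stem cells thus lay 4.21- to 5.49-fold above the mitotic cells over the libraries. The ratio of its mean level in the highest class to that in the second was 4.68, and that of the other 9 genes was 1.38 to 2.78. For Lgr5 the range of S phase cells overlapped both that of mitotic cells and the Paneth range of 0.0786 to 0.103. In AOS 0 the ratio of S phase to mitotic cells was 0.522 (0.341 to 0.785), and in the other libraries its interval held 1. In mature enterocytes 0 UMIs were counted among 10209164, where 3 UMIs would have been a level of 0.00294.

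Ascl2 was 1.05, 1.01 and 0.806 in the stem cells of the 3 libraries, from 105, 69 and 66 UMIs. The level was 0.412, 0.452 and 0.369 in mitotic cells and 0.380, 0.463 and 0.304 in S phase cells, so that the 2 dividing classes overlapped. Stem cells were 2.18- to 2.77-fold above S phase cells. In the 4 other classes its mean level lay between 0.0155 in goblet cells and 0.0987 in enteroendocrine cells. The 30 tuft cells had 0.935, 0.923 and 0.535, from 6, 3 and 2 UMIs.

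Sox9 was the gene of the list with the largest share of its UMIs in Paneth cells, 13.7%, and in goblet cells, 10.2%. In stem cells it was 2.48, 2.24 and 2.15, in S phase cells 0.851, 1.00 and 0.916, and in Paneth cells 0.706, 0.552 and 0.796. Paneth and enteroendocrine cells overlapped for Sox9, and so did enteroendocrine and goblet cells. Among goblet cells it stood apart in 1 of 3 clusters. Smoc2, Clca3b and Cdca7, among others, were also highest in that goblet cluster in all 3 libraries. In the goblet cluster led by Ccl9 and Reg4 Sox9 was 0.864, 1.01 and 0.978, near the crypt cells, while in the cluster led by Ido1 and Clca1 it was 0.0448, 0.0292 and 0.107. Tuft cells, the chemosensory cells of the epithelium, had 2.96, 4.61 and 4.81, from 19, 15 and 18 UMIs, above the stem cells in all 3 libraries.

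Axin2, alone of the 10 genes, was higher in mature than in early enterocytes in all 3 libraries. Stem cells had 1.28, 1.20 and 1.41, mitotic cells 0.611, 0.720 and 0.815, and S phase cells 0.626, 0.707 and 0.690. Early enterocytes still had 0.175, 0.138 and 0.171, and mature enterocytes had 0.242, 0.183 and 0.258. Of its UMIs 57.7% lay in crypt cells, a share above that of Sox9 and below that of the other 8 genes.

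Olfm4 was 64.4, 51.0 and 47.4 in stem cells, from 6414, 3486 and 3880 UMIs. It was 19.5, 21.8 and 17.2 in S phase cells and 15.8, 17.3 and 14.6 in mitotic cells. The ranges overlapped, but within each library S phase cells were higher. Early enterocytes had 0.372, 0.614 and 0.858, so that stem cells stood 55.3- to 173-fold above them. Mature enterocytes had 0.213, 0.589 and 0.594, and T cells, taken as a class from outside the epithelium that should lack the gene, had 4.73, 7.74 and 3.63. Called doublets made up 11.6%, 3.61% and 3.45% of the T cells.

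Smoc2 and Cd44 had lower steps than Olfm4, with ratios of the highest to the second class of 1.75 and 1.38. Those of Clca3b and Cdca7 were 1.74 and 1.71. Smoc2 was 1.97, 2.05 and 1.77 in stem cells and 0.985, 1.28 and 1.03 in S phase cells, a ratio of 1.60 to 2.0. Cd44 was 2.03, 1.55 and 1.49 in stem cells, and its second class was not a dividing class but the enteroendocrine cells, with 1.15, 1.22 and 1.32 from 45, 29 and 31 UMIs. S phase cells had 0.804, 1.06 and 1.03. When every cell was thinned to 1000 UMIs, the mean level of Cd44 was highest in enteroendocrine cells, the 1 case among 9 alternatives in which a gene of the list was not highest in stem cells.

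Slc12a2 was 9.33, 8.07 and 8.78 in stem cells, 4.35, 4.50 and 4.14 in S phase cells and 3.59, 3.62 and 3.74 in mitotic cells. In goblet cells it was 1.28, 1.15 and 1.16, above the 0.242, 0.328 and 0.274 of early enterocytes, and 9.06% of its UMIs lay there. Its goblet level was lowest in the cluster led by Ido1, with 0.507, 0.671 and 0.462. It was 1.55, 1.32 and 1.32 in the cluster led by Mptx1 and 1.72, 1.59 and 1.83 in that led by Ccl9.

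Clca3b was 7.66, 6.03 and 4.46 in stem cells, 3.69, 3.53 and 3.24 in S phase cells and 3.38, 3.06 and 2.85 in mitotic cells. In early enterocytes it remained at 0.511, 0.562 and 0.822, and stem cells were 5.43- to 15.0-fold above them, a lower ratio than for the other 9 genes in B + A 10. Cdca7 was 2.15, 2.33 and 2.92 in stem cells, 1.17, 1.5 and 1.65 in S phase cells and 0.832, 1.05 and 1.20 in mitotic cells. For the 10 genes apart from Slc12a2 the range of S phase cells over the libraries overlapped that of mitotic cells. Within each library, however, the ratio of S phase to mitotic cells had an interval above 1 for Olfm4, Clca3b and Cdca7. It was 1.23, 1.26 and 1.18 for Olfm4, 1.09, 1.15 and 1.14 for Clca3b, and 1.41, 1.43 and 1.38 for Cdca7. The other genes with overlapping ranges did not have this in every library.

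**Figure D2:**
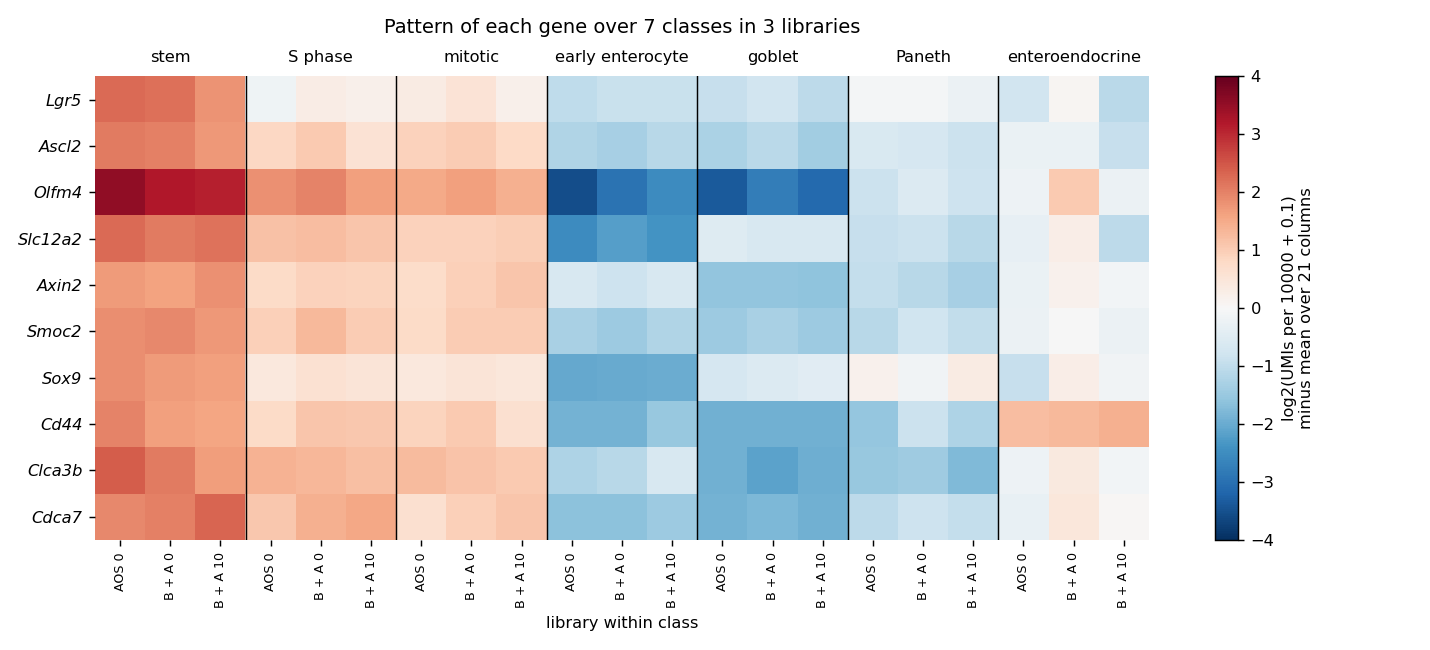
Pattern of each gene over 21 columns (7 classes, 3 libraries within each), as log2(UMIs per 10000 + 0.1) minus the gene's mean over the columns. The first 9 columns, the crypt cells, lie above the mean for the 10 genes apart from Lgr5 in the S phase cells of AOS 0, and the enteroendocrine columns lie near the crypt for Cd44.

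The share of cells in which a gene was seen was compared after thinning each cell to 1000 UMIs, since the median of stem cells was 5839, 5252 and 3024 UMIs in the 3 libraries and that of mature enterocytes 5107, 4905 and 2648. No cell was left out. Olfm4 was seen in 97.4% of thinned stem cells and 4.92% of thinned mature enterocytes, and in 100% and 15.6% without thinning. Slc12a2 was seen in 62.4% against 1.20%, Clca3b in 41.6% against 0.579% and Cdca7 in 23.3% against 0.496%. Lgr5 was seen in 6.62% of thinned stem cells, against 31% at full depth and 0% in mature enterocytes at either depth, of 2420 cells, which allows a share of up to 0.124% of cells with a UMI and sets no such limit on cells that express the gene. The receptor that names these cells was thus seen in fewer of them than any other gene of the list, the next being Ascl2 with 7.56%. For Lgr5 the thinned shares were 4.85%, 13.6% and 4.47%, an order that goes against its levels, and no order was read from them.

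The number of the 10 genes seen in a thinned cell differed between classes. Stem cells had a mean of 3.05 of the 10 genes, S phase cells 1.80, mitotic cells 1.48, Paneth cells 0.608, early enterocytes 0.204 and mature enterocytes 0.107. At least 3 genes were seen in 64.5% of stem cells, 28.1% of S phase cells and 24.9% of mitotic cells, against 0.408% of early enterocytes. Mitotic cells had none of the genes in 35.5% of cells, S phase cells in 17% and stem cells in 0.567%. By library the share of stem cells with at least 3 was 69.7%, 66.9% and 59.8%.

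**Figure D3:**
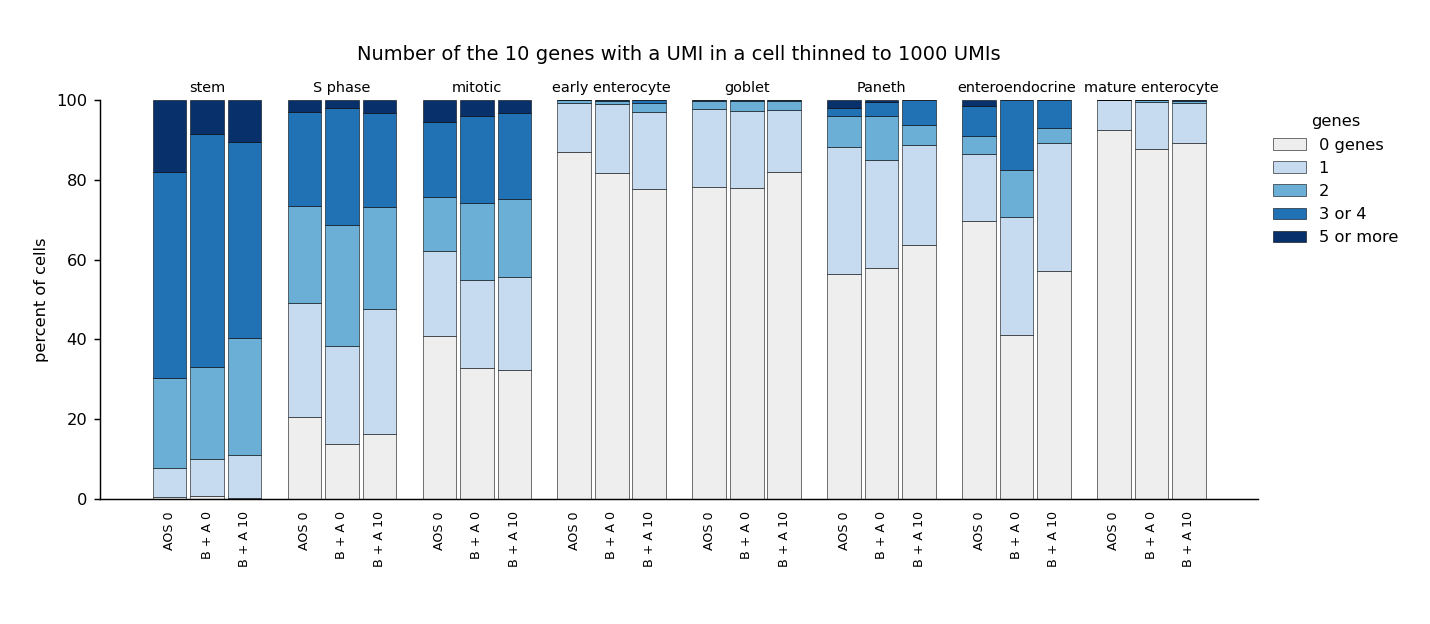
Percent of cells (vertical axis) by how many of the 10 genes had a UMI after thinning to 1000 UMIs, with 1 bar per library in each class. Stem cells without any of the genes made up 0.567% over the libraries, and mature enterocytes without any 89.9%.

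Among the 529 thinned stem cells, 35 had a Lgr5 UMI. Ascl2 was seen in 8.57% of them (1.80% to 23.1%) and in 7.49% of the stem cells without a Lgr5 UMI (5.33% to 10.2%). Axin2 was seen in 14.3% and 13.2%. The intervals overlapped, and a difference between stem cells with and without a Lgr5 UMI was not detectable for Ascl2 and Axin2 at this depth. Of the 1296 thinned S phase cells 23 had a Lgr5 UMI. Among them Olfm4 was seen in 95.7% (78.1% to 99.9%), against 64.8% of the S phase cells without one (62.1% to 67.4%). Slc12a2 was seen in 69.6% (47.1% to 86.8%) against 30.8% (28.3% to 33.4%). For Ascl2, Axin2, Smoc2, Sox9, Cd44, Clca3b and Cdca7 the intervals of S phase cells with and without a Lgr5 UMI overlapped. Axin2 was the gene seen less often with a Lgr5 UMI there, in 4.35% against 5.42%. In stem cells the intervals overlapped for all of these genes, and for Olfm4 and Slc12a2 too.

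The likeness of patterns was described by the Pearson correlation of log2(UMIs per 10000 + 0.1) over the 21 points, which share libraries, depth and the same cells. Between pairs of the 10 genes it ranged from 0.68 (Lgr5 and Cd44) to 0.99 (Smoc2 and Cdca7), with 45 pairs in all. Among 8263 other genes with at least 300 UMIs, the closest to the mean of the list were Cdk6 (0.980), a kinase of the G1 phase, Phgdh (0.979), which starts serine synthesis, Aqp1 (0.977), a water channel, Myc (0.976), a Wnt target that codes for a transcription factor of growth, and Slco3a1 (0.970), an organic anion transporter. For single genes the closest were Rgcc for Lgr5 (0.954), Myc for Ascl2 (0.971), Aqp1 for Olfm4 (0.987), Slc19a1 for Slc12a2 (0.951) and Car12 for Axin2 (0.984). They were Phgdh for Smoc2 (0.987), Soat1 for Sox9 (0.926), Cnn3 for Cd44 (0.979), Ifitm3 for Clca3b (0.987) and Cdk6 for Cdca7 (0.984). Aqp1, Ifitm3 and Soat1 are stem markers that had served to name the clusters. Cdk6, Cnn3 and Rgcc were, like Ifitm3, among the 10 leading genes of the stem cells. Of the closest genes only Myc was kept out of the clustering, so the likeness of the others may be set in part by it.

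The libraries were then compared within crypt cells. The 3 comparisons share libraries, so their values are given side by side. Genes are called higher or lower where the log2 ratio was above 0.32 or below -0.32. The median ratio of all genes with at least 100 UMIs was 0.944 for B + A 0 to AOS 0, 0.986 for B + A 10 to B + A 0 and 0.929 for B + A 10 to AOS 0, and 0.973, 0.995 and 0.965 when ribosomal and defensin genes were left out of the scaling. The median of the 10 genes was 1.11, 0.898 and 1.01, and the first of these was 0.988 in cells thinned to 1000 UMIs. For B + A 0 to AOS 0, 6.17% of all genes were called higher and 13.2% lower (7.74% and 9.61% with that scaling), and of the 10 genes 1 was higher, Cdca7, and none lower. For B + A 10 to B + A 0 the shares of all genes were 6.67% higher and 6.77% lower, and 1 gene of the list was lower, Ascl2. In thinned cells its ratio was 0.657, from 97 UMIs in both libraries and so under the minimum of 100, and Axin2 and Cdca7 were called higher instead (1.28 and 1.44). From AOS 0 to B + A 10 they were 9.52% and 20.4% (12% and 15.0% with that scaling), and 1 gene was higher, again Cdca7. With 10 genes, counts of 1 and 0 were too small to be read against these shares.

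Cdca7 had the highest ratio of B + A 10 to AOS 0 of the 10 genes in crypt cells, with levels of 1.09, 1.39 and 1.61 in the 3 libraries. The ratio of B + A 0 to AOS 0 was 1.27 (1.16 to 1.39) and that of B + A 10 to AOS 0 was 1.47 (1.35 to 1.60). Within stem, S phase and mitotic cells the latter was 1.36, 1.41 and 1.44. The former was 0.947 in cells thinned to 1000 UMIs, where the direction turned, while the ratio of B + A 10 to AOS 0 lay between 1.37 and 1.57 over 9 alternatives.

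Clca3b had the opposite order. Its crypt level was 3.92, 3.59 and 3.22, and in stem cells 7.66, 6.03 and 4.46. The stem cell ratio of B + A 10 to AOS 0 was 0.582 (0.512 to 0.660) and lay between 0.55 and 0.60 over 9 alternatives, while it was 0.879 in S phase and 0.844 in mitotic cells. In early enterocytes the same ratio was 1.61 (1.31 to 1.97).

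Olfm4 differed in direction between stem and dividing cells. In stem cells the ratio of B + A 0 to AOS 0 was 0.792 (0.759 to 0.825), and in S phase and mitotic cells it was 1.11 (1.08 to 1.15) and 1.09 (1.05 to 1.13). The ratio in crypt cells as a whole was 1.04, between 0.96 and 1.07 over the alternatives. All 3 classes were below 1 for B + A 10 to B + A 0, with 0.930, 0.791 and 0.845, and that of stem cells was 0.82 to 1.01 over the alternatives. In early enterocytes the ratio of B + A 10 to AOS 0 was 2.31 (1.85 to 2.88), and the mature enterocyte level of Olfm4 moved in the same direction, from 0.213 to 0.594. The part of RNA from other cells in it was not tested.

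Cd44 showed a like contrast. In stem cells its ratio of B + A 0 to AOS 0 was 0.764 (0.598 to 0.972), and in S phase cells 1.31 (1.12 to 1.54). In Paneth cells it was 2.35 (1.43 to 4.04), from 20 and 85 UMIs. In crypt cells the levels were 0.968, 1.08 and 0.956.

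Lgr5 and Ascl2 were lowest in the stem cells of B + A 10. The stem cell ratio of B + A 10 to AOS 0 was 0.688 (0.480 to 0.976) for Lgr5 and 0.765 (0.553 to 1.05) for Ascl2, and both lay below 1 in 9 of 9 alternatives, between 0.48 and 0.92 and between 0.46 and 0.78. In S phase cells Lgr5 had 34, 50 and 39 UMIs in the 3 libraries, a ratio of 1.65 (1.01 to 2.69) for B + A 10 to AOS 0. In crypt cells the Lgr5 level was 0.212, 0.257 and 0.208, and the Ascl2 level 0.464, 0.515 and 0.398.

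Axin2 and Smoc2 had higher levels in the crypt cells of both busulfan groups. Axin2 was 0.683, 0.764 and 0.838, with ratios to AOS 0 of 1.12 (0.995 to 1.26) and 1.23 (1.09 to 1.38), each below 1 in 1 of 9 alternatives (0.71 and 0.90). Smoc2 was 1.02, 1.26 and 1.13, and its ratio of B + A 0 to AOS 0 was 1.24 (1.13 to 1.36), between 1.11 and 1.27 over the alternatives. Slc12a2 and Sox9 differed little in crypt cells as a whole. Slc12a2 had crypt levels of 4.45, 4.49 and 4.56 and ratios of 1.01 (0.962 to 1.06) and 1.02 (0.977 to 1.07) to AOS 0. Sox9 had 1.01, 1.09 and 1.06, with ratios of 1.08 (0.979 to 1.19) and 1.05 (0.948 to 1.15). By class, the ratio of B + A 0 to AOS 0 was 0.865 (0.778 to 0.963) for Slc12a2 in stem cells. For Sox9 it was 1.18 (1.00 to 1.38) in S phase cells and 0.782 (0.640 to 0.956) in Paneth cells.

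**Figure D4:**
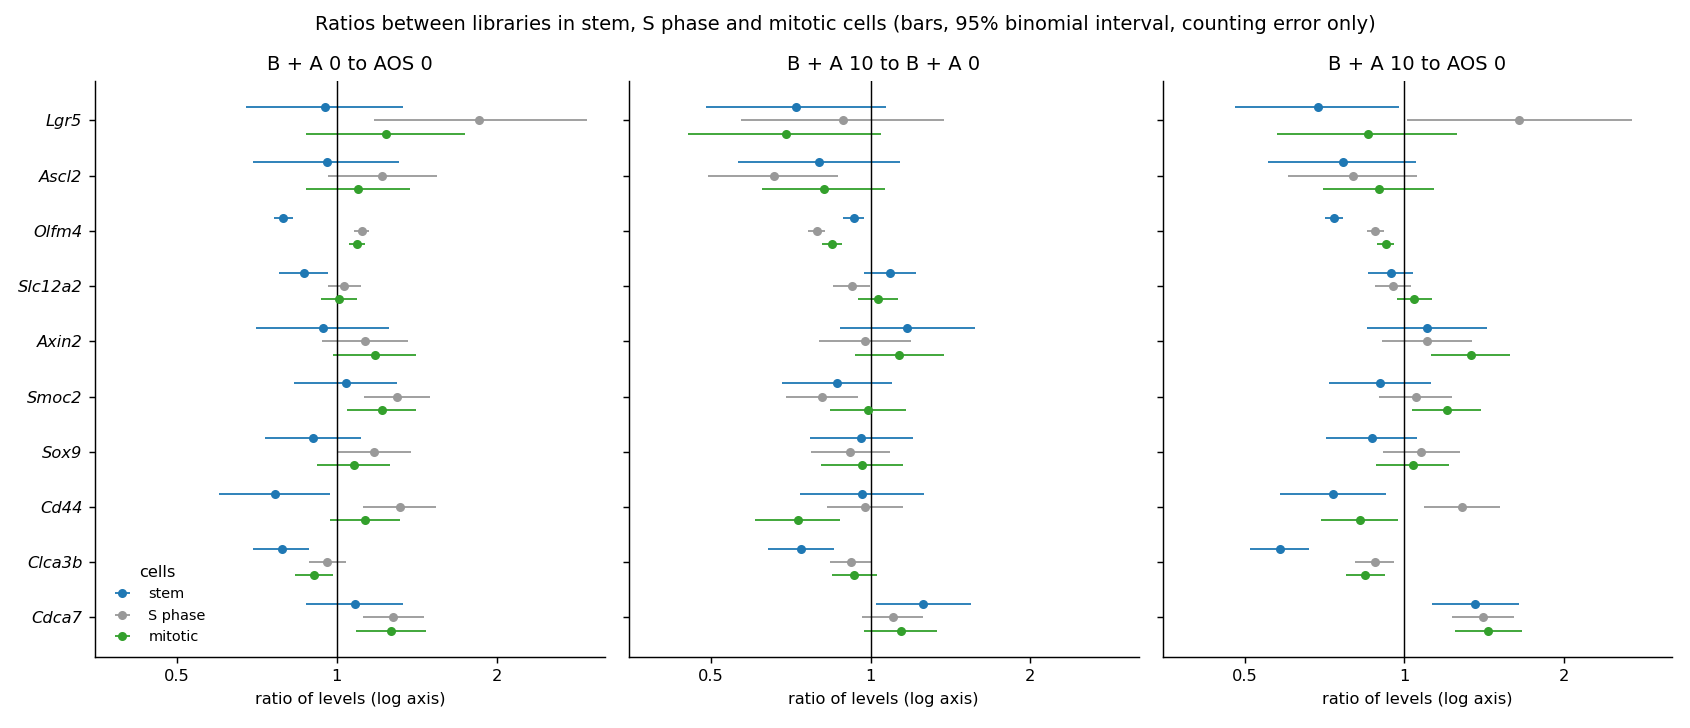
Ratio of levels between libraries (log axis) for each gene in stem, S phase and mitotic cells, 1 panel per comparison, with 95% binomial intervals for counting error. For B + A 0 to AOS 0 the stem cell points of Olfm4 (0.792) and Cd44 (0.764) lie left of 1 and the S phase points right of it, and for B + A 10 to AOS 0 the stem cell point of Clca3b (0.582) lies farthest left.

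For both comparisons with AOS 0 the median of the 10 genes was lower in stem cells than in S phase and mitotic cells, and for B + A 10 to B + A 0 the 3 classes were close. In stem cells the median of the 10 genes was 0.921, 0.945 and 0.814 for B + A 0 to AOS 0, B + A 10 to B + A 0 and B + A 10 to AOS 0, where that of all genes was 0.968, 0.981 and 0.948. In S phase cells, over all 10 genes, it was 1.20, 0.916 and 1.06, where that of all genes was 0.940, 0.988 and 0.926. In mitotic cells it was 1.11, 0.948 and 0.978. In stem cells 3 genes, Olfm4, Cd44 and Clca3b, were called lower in B + A 0 than in AOS 0, where 15.0% of all genes were, and none was called higher, where 8.62% were. Lgr5, Ascl2, Olfm4, Cd44 and Clca3b, 5 of 10, were lower in B + A 10 than in AOS 0, where 21.5% of all genes were, and 1, Cdca7, was higher, where 13.3% were. Between B + A 10 and B + A 0, 3 genes were lower, Lgr5, Ascl2 and Clca3b, and 1 higher, Cdca7, against 9.59% and 9.43% of all genes. There the intervals of Lgr5 (0.490 to 1.07) and Ascl2 (0.561 to 1.14) held 1, and those of Clca3b and Cdca7 did not.

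From AOS 0 to B + A 0 the calls were all in the higher direction, 3 in S phase and 1 in mitotic cells. The count of 1 in mitotic cells was too small to be read against the share of all genes. In S phase cells, where 9 of the 10 genes had enough UMIs and Lgr5 had not, Cd44, Smoc2 and Cdca7 were called higher in B + A 0 than in AOS 0 (6.91% of all genes were) and none lower (15.7%). Compared with B + A 0, Ascl2 and Olfm4 were lower in the S phase cells of B + A 10 (8.48%) and none higher (7.44%). Compared with AOS 0, Cd44 and Cdca7 were higher there (9.95%) and none lower (22.1%). In mitotic cells Cdca7 was higher in B + A 0 than in AOS 0 (5.95%) and none lower (14.5%). Lgr5 and Cd44 were lower in the mitotic cells of B + A 10 than of B + A 0 (9.58%) and none higher (7.62%). The interval of Lgr5 for this (0.453 to 1.05) held 1, and that of Cd44 did not. Axin2 and Cdca7 were higher in the mitotic cells of B + A 10 than of AOS 0 (9.48%) and none lower (21.6%).

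In enteroendocrine cells, hormone-producing cells of which 66, 34 and 56 were found, Olfm4 was 4.69, 11.2 and 4.56 and Slc12a2 was 1.45, 2.27 and 0.852. B + A 0 was the highest for both. Olfm4 was seen in 20, 22 and 21 of these cells, and the 3 highest cells held 55.4%, 36.7% and 40.2% of its UMIs. The ratio of B + A 0 to AOS 0 was 2.40 (1.98 to 2.91) for Olfm4 and 1.56 (1.06 to 2.31) for Slc12a2. T cells, which should lack Olfm4, had between 3.63 and 7.74 of it over the libraries, with B + A 0 again the highest. Their Slc12a2 level lay between 0.804 and 1.49. The part of RNA from other cells in the enteroendocrine levels was not tested. In AOS 0, 12.1% of the enteroendocrine cells were called doublets, and in B + A 0 2.94%.

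The Wnt pathway genes outside the list were described by role, with 64 of 74 listed genes in the table. Of 12 targets 10 were highest in a crypt class and 8 in stem cells, namely Myc, Sp5, Tnfrsf19, Lrig1, Ephb3, Ets2, Msi1 and Sox4. Of 12 receptors 7 were highest in a crypt class, of 8 inhibitors 4, of 13 nuclear factors 4, of 12 transducers 3 and of 7 ligands 1. The ligands other than Wnt3 had 2 to 33 UMIs in all cells, so their highest class rests on few molecules. Of the 39 pathway genes with at least 300 UMIs, 21 (53.8%) were highest in a crypt class, where 45.0% of all such genes were.

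**Figure D5:**
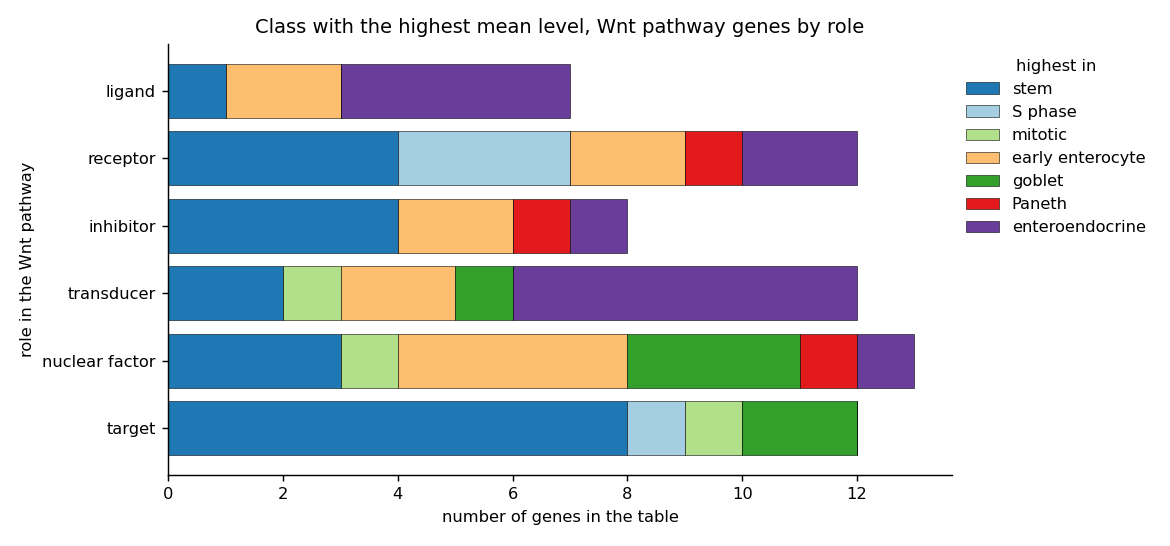
Number of Wnt pathway genes in the table (horizontal axis) by role and by the class in which each had its highest mean level. Stem cells are the highest class for 8 of 12 targets and 1 of 7 ligands, Wnt9b, which had 2 UMIs in all.

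Among the ligands Wnt3, which Paneth cells are known to supply, had mean levels of 0.308 in enteroendocrine and 0.233 in Paneth cells and 0.0616 in stem cells. The Paneth level is a share lowered by the Paneth markers, so its order against enteroendocrine cells was not read. Lgr4, the R-spondin receptor related to Lgr5, was near even over the epithelium, with 1.21 in stem cells, 1.11 in early enterocytes and 0.612 in Paneth cells. The receptor Fzd5 ran the other way, with 0.363 in stem cells and 1.03 in early enterocytes. The secreted inhibitor Sfrp5 was 0.513 in stem cells and 0.00484 in early enterocytes. Ctnnb1, the gene of beta-catenin, was 2.96 in stem and 2.90 in early enterocytes, and the kinase gene Csnk1a1 2.29 and 2.50. The repressor gene Aes was 2.26 in stem cells and 3.86 in early enterocytes.

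Of the 4 targets with at least 1 UMI per 10000 in a class, Sox4 alone was highest in stem cells. Sox4, a transcription factor, was 1.61 in stem cells, 0.594 in S phase cells and 1.52 in enteroendocrine cells. The cyclin genes Ccnd1 and Ccnd2 were 1.88 and 3.25 in stem cells, 2.78 and 3.76 in S phase cells, and 0.292 and 3.95 in goblet cells. Prom1, a membrane protein gene, was 0.694 in stem cells and 1.16 in goblet cells.

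In crypt cells 6 of 40 pathway genes with enough UMIs were called higher in B + A 0 than in AOS 0 (Fzd7, Sfrp5, Bcl9l, Tle1, Tle3 and Lrig1) and 1 was lower, Fzd5, where 6.17% and 13.2% of all genes were. From B + A 0 to B + A 10, 4 of 38 were higher (Tnks2, Tcf7l2, Pygo2 and Msi1) and 2 lower (Sfrp5 and Sox4), where 6.67% and 6.77% of all genes were. The intervals of Fzd7 (0.934 to 1.71) in the first of these comparisons and of Pygo2 (0.955 to 1.76) in the second held 1. From AOS 0 to B + A 10, 10 of 40 were higher and 2 lower, where 9.52% and 20.4% of all genes were, and their median ratio was 1.11 where that of all genes was 0.929. Sfrp5 was 0.175, 0.275 and 0.192 in the crypt cells of the 3 libraries, a ratio of 1.57 (1.27 to 1.94) followed by 0.698 (0.550 to 0.883). Fzd5 was 0.768, 0.595 and 0.601, lower in both busulfan groups. Sox4 was 0.742, 0.823 and 0.641, and Ccnd2 was 3.11, 3.54 and 4.03. In stem cells Sfrp5 was 0.583, 0.541 and 0.415 and Sox4 1.78, 1.70 and 1.34, so neither rose there in B + A 0. From AOS 0 to B + A 0, Fzd7 also fell in stem cells (0.251 to 0.176) and Lrig1 was even (0.412 to 0.410). Bcl9l (0.121 to 0.205) and Tle3 (0.211 to 0.278) rose there. Mitotic cells made up 43.8%, 38.8% and 38.5% of the crypt cells. The part of this mix in the crypt ratios was not tested.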

How the data were processed

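The authors pooled small intestinal cells of 6 mice per group, made 1 droplet library per group (3′ v2 chemistry), counted UMIs with Cell Ranger 2.2.0 on mm10 with a forced number of cells, and left out cells with few genes and genes seen in few cells in Seurat. The values they deposited are the natural log of 1 plus UMIs per 10000 UMIs of a cell. Per the labels each column belongs to 1 of the 3 groups. Whole UMI counts were recovered from these values (100% of values were whole within 0.01 UMI), giving 35258551, 26044381 and 23003083 UMIs in AOS 0, then B + A 0, then B + A 10. No mitochondrial gene was listed.

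Cells were clustered in Seurat 5.3.0 (R 4.3.3) on 2000 variable genes without the 10 genes and the Wnt list, after joining the libraries by canonical correlation anchors (20 dimensions, 20 neighbours, resolution 0.8). Of 20 clusters 15 were named from marker lists, each with at least 3 markers detected, at least 1 own marker among its 10 leading genes, and no other list with more. That clusters of mostly doublets stay unnamed, and how ties between crypt lists were settled, was set after the clusters were seen. Scrublet (scanpy 1.11.5) called 18 of 12653 cells by its automatic threshold, which did not work, and the highest 5% of scores per library were taken as called doublets and kept.

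UMIs were summed per class and library with exact Poisson intervals, ratios of 2 libraries have exact binomial intervals and shares exact Clopper-Pearson intervals, all at 95% and for counting error only. The level of a class over libraries is the mean of the 3 with equal weight. The code for the ratios was tested on simulated counts of genes raised and lowered by known folds, a check of the code and not of the libraries. Other steps used Python 3.11.15, numpy 2.4.6, pandas 2.3.3, scipy 1.17.1 and matplotlib 3.10.9. The genes named are the 10 genes, the Wnt genes with at least 1 UMI per 10000 in a class or the highest level of their role (a gene named in a count was named after its value was seen), and the closest genes by correlation among those with at least 300 UMIs. The 10 genes, the lists and the comparisons were chosen with earlier results of these data known. Alternatives were no joining, resolutions 0.4 and 1.5, each cell named by its own marker scores, cells with at least 500 genes, no called doublets, scaling without ribosomal and defensin genes, means of per-cell values, cells thinned to 1000 UMIs, a fold of 1.5 and a minimum of 10 UMIs. Ratios in stem cells alone under these were added after seeing the data. Promoters are RefSeq sequences. The promoters of Lgr5, Slc12a2, Smoc2 and Sox9 were not used here.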

Additional observations from a re-analysis of the deposited data

Results flagged for a closer look

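Among stem, S phase, mitotic and early enterocyte cells, Olfm4, Cd44, Clca3b and Lgr5 differed between libraries in opposite directions. Their intervals for counting error lay on opposite sides of 1. With Paneth and enteroendocrine cells taken in, Slc12a2 and Sox9 did so too for B + A 0 to AOS 0. Slc12a2 had 0.865 in stem and 1.56 in enteroendocrine cells. Sox9 had 0.782 in Paneth cells and 1.18 in S phase cells. In enteroendocrine cells it had 2.70 (1.21 to 6.33), from 11 and 18 UMIs. The enteroendocrine cells of B + A 0 also had the highest sums of stem and S phase markers of the 3 libraries. With 1 library per group the difference between classes was not tested.

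For B + A 0 to AOS 0 the ratio of Olfm4 was 0.792 in stem cells, 1.11 in S phase cells, 1.09 in mitotic cells and 1.65 in early enterocytes. Its ratio of B + A 10 to B + A 0 was 0.930 in stem cells, 0.791 in S phase cells, 0.845 in mitotic cells and 1.40 in early enterocytes. Its ratio of B + A 10 to AOS 0 was 0.736 in stem cells, 0.881 in S phase cells, 0.922 in mitotic cells and 2.31 in early enterocytes. The Olfm4 level of mature enterocytes, 0.213, 0.589 and 0.594 UMIs per 10000 from AOS 0 through B + A 0 to B + A 10, moved with that of the early enterocytes.

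For Cd44 the ratio of B + A 0 to AOS 0 was 0.764 in stem cells and 1.31 in S phase cells, and that of B + A 10 to AOS 0 was 0.735 in stem cells, 1.28 in S phase cells and 0.824 in mitotic cells.

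For Clca3b the ratio of B + A 10 to B + A 0 was 0.740 in stem cells and 1.46 in early enterocytes, and that of B + A 10 to AOS 0 was 0.582 in stem cells, 0.879 in S phase cells, 0.844 in mitotic cells and 1.61 in early enterocytes. For Lgr5 the ratio of B + A 10 to AOS 0 was 0.688 in stem cells (0.480 to 0.976) and 1.65 in S phase cells (1.01 to 2.69), the latter from 34 and 39 UMIs.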

How the results depend on the processing

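The 10 genes were highest in a crypt class under the alternatives, with 1 exception, Cd44 in cells thinned to 1000 UMIs. Without joining the libraries, and at resolution 0.4, no S phase class was found. The number of the 10 genes past 0.3219 in either direction on the log2 scale in crypt cells was small and moved. For B + A 0 to AOS 0 it was 1, a higher gene, and became 2 higher without joining the libraries and with scaling without ribosomal and defensin genes, 3 higher at resolution 1.5, and 0 with cells named by their own scores, with means of per-cell values and with a fold of 1.5. In thinned cells it was 1 lower, Axin2 (0.706). For B + A 10 to B + A 0 it was 1, a lower gene, and became 2 lower at resolutions 0.4 and 1.5, 2 higher and 0 lower in thinned cells, and 0 with a fold of 1.5. For B + A 10 to AOS 0 it was 1, a higher gene, and became 2 higher without joining, with own scores and with that scaling, 1 higher and 1 lower (2 in all) with means of per-cell values, 1 higher and 2 lower (3 in all) in thinned cells, and 0 with a fold of 1.5. The median ratio of B + A 0 to AOS 0 was 0.988 in thinned cells, against 1.11, and the ratio of Cdca7 was 0.947, against 1.27. In these the cause was not tested. That scaling moved the median of all genes from 0.944, 0.986 and 0.929 to 0.973, 0.995 and 0.965, and the share of all genes lower in B + A 0 than in AOS 0 from 13.2% to 9.61%. Of 270 ratios of single genes in crypt cells 243 moved by less than their interval, 26 by more, and 1 past the threshold, that of Cdca7, turned its direction. Of the same 270, 19 fell on the other side of 1 from the reported ratio, 8 of them in thinned cells. In stem cells 245 of 270 moved by less and 25 by more, and 15 fell on the other side of 1, 9 of them in thinned cells. No paired analysis was possible because each group has 1 library, and none could be left out. Depth limits B + A 10, with a median of 3505 UMIs per cell, and Lgr5, with 679 UMIs in all. Results rest on rebuilt classes, 5 of 20 clusters stayed unnamed, and RNA of other cells was not removed.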
